A study of Mus musculus with 47 samples.

Results

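The Hox, Dlx, Irx, Lhx, Emx, En and Meis genes encode homeodomain transcription factors that pattern the embryo, and their RNA was measured here in 4 regions of the adult female mouse brain. Members were all protein-coding genes, by the symbols of the mouse GENCODE annotation, that belong to the 4 Hox clusters or are numbered Dlx1 to Dlx6, Irx1 to Irx6, Lhx1 to Lhx8, Emx1 and Emx2, En1 and En2, or Meis1 to Meis3. There were 64 of them among the 37315 genes of the count tables, namely 38 Hox, 6 Dlx, 6 Irx, 7 Lhx, 3 Meis, 2 Emx and 2 En genes. The rule uses names and no measured value.

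All libraries came from females of C57BL/6J, an inbred laboratory strain, with no treatment or genetic change given in the labels. Whole hypothalamus, hippocampus and neocortex, each from both sides, and whole cerebellum were taken from individual mice at proestrus (aged 91 days), estrus (90 days), metestrus (90 or 91 days) or diestrus (90 or 92 days). Each region had 3 libraries per stage, except that 2 estrus libraries of the neocortex were analysed, which gave 12 libraries of the hypothalamus, 12 of the hippocampus, 11 of the neocortex and 12 of the cerebellum. The series asks how far the transcriptome of each region moves over the cycle, and the levels by region are a second reading of the same libraries.

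The libraries held 7672217 to 15680876 counts in the hippocampus, 6311867 to 10535466 in the neocortex, 2558644 to 7996961 in the cerebellum and 1826368 to 8264980 in the hypothalamus. Hippocampus libraries were made with another protocol than the other 3 regions, so that for any comparison with the hippocampus region and protocol cannot be told apart. Each region also had its own count table and was treated as its own library batch. Region and batch therefore cannot be told apart in the other pairs either. The labelled regions were checked with marker genes: the summed level of 8 hypothalamic neuropeptide genes was 463 to 802 CPM (counts per 1000000 counts, after TMM scaling) in the hypothalamus and at most 6.10 CPM in the hippocampus, and that of 8 cerebellar genes was 4583 to 5402 CPM in the cerebellum. In genes reported here 5 libraries stood apart. Cerebellum Estrus 2, Metestrus 1 and Metestrus 2 were high in Meis2, Lhx2, Lhx9 and Tcf7l2, and Hypothalamus Estrus 3 and Metestrus 3, the least deep of their region, were high in Meis2. Differences of Lhx2, Meis2 and Irx2 that they moved are given with and without these 5 libraries, a choice made after seeing the data.

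Homeodomain proteins bind short AT-rich DNA sites and set regional identity along the axes of the embryo. Hox genes lie in clusters and are used in order from the hindbrain down the spinal cord, while forebrain and midbrain form without them. En genes act at the boundary of midbrain and hindbrain, from which the cerebellum arises. Emx genes and Lhx2 act in the dorsal telencephalon, the source of cortex and hippocampus, and Dlx genes act in the ventral forebrain, the source of most forebrain GABAergic interneurons, in which Lhx6 works downstream. Lhx1 and Lhx5 are used in the diencephalon and in cerebellar Purkinje cells, and Irx genes in neural territories behind the telencephalon. Meis proteins belong to the TALE class of homeodomain proteins and bind DNA together with Hox and Pbx proteins.

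Promoters of 38 of the 64 members were found in the RefSeq table (GRCm38.p6, 44 promoters, each from 250 bases before the start to 50 after it). Those of 7 members that stand for the patterns below are printed 5′ to 3′, with CG dinucleotides in capitals, since CG-rich starts are a feature that the selection rule did not use. En1, Lhx1 and Irx2 were highest in the cerebellum, Lhx2, Emx2 and Dlx1 were lowest there, and Hoxd10 had no count in any library.
En1 (chr1:120602237-120602536, + strand): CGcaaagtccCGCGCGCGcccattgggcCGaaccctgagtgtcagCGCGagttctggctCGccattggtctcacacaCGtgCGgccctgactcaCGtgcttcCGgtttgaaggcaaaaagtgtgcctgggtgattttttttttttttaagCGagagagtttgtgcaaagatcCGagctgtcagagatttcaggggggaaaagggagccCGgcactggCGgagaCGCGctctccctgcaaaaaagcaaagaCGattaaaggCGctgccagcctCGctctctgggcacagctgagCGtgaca
Lhx1 (chr11:84525485-84525784, - strand): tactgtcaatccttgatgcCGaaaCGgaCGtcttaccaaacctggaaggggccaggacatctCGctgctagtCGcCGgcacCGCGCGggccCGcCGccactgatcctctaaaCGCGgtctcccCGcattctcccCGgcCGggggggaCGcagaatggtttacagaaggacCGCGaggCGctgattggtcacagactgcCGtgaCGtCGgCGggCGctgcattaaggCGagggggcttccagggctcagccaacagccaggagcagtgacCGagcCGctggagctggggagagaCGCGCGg
Irx2 (chr13:72628570-72628869, + strand): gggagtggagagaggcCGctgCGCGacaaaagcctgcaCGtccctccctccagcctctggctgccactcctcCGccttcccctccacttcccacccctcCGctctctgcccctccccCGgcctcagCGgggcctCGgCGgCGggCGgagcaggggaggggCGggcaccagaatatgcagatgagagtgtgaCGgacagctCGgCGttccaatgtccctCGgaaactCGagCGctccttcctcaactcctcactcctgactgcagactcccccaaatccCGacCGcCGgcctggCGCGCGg
Lhx2 (chr2:38339031-38339330, + strand, the first of 2 promoters in the table): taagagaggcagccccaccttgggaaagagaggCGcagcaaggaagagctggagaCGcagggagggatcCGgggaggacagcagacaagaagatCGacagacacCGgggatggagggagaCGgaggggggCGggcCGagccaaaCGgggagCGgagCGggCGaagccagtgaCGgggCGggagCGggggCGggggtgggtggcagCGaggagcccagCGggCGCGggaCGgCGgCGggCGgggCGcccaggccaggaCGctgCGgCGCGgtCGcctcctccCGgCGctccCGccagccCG
Emx2 (chr19:59458440-59458739, + strand): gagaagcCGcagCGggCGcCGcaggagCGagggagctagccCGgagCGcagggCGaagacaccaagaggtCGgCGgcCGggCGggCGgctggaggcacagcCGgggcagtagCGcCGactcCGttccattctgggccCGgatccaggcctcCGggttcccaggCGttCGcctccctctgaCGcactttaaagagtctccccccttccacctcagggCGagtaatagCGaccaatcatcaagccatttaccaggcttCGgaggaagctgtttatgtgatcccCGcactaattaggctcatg
Dlx1 (chr2:71529195-71529494, + strand): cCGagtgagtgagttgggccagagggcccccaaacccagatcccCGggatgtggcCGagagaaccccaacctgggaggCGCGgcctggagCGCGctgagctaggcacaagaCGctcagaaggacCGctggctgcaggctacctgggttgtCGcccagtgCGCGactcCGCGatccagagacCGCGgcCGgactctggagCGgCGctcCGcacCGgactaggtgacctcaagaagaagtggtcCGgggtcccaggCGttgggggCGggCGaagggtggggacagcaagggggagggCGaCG
Hoxd10 (chr2:74691641-74691940, + strand): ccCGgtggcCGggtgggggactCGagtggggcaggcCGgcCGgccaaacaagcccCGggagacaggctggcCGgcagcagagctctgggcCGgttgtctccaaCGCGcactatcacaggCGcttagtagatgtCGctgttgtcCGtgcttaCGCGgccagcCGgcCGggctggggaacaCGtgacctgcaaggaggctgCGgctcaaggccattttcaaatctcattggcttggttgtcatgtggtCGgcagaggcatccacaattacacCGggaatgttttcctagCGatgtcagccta
These hold 23 (En1), 31 (Lhx1), 25 (Irx2), 34 (Lhx2), 26 (Emx2), 27 (Dlx1) and 22 (Hoxd10) CG dinucleotides. The promoters of members had a median of 20 (range 4 to 45, 44 promoters), against 7 over all 32851 promoters of the table, and those of the Hox genes a median of 15 (23 promoters). Hoxd10, with no count, and Lhx1, read strongly in the cerebellum, both had starts above the median of the table. The homeodomain core TAATTA, which is its own reverse complement, occurred in 6.82% of member promoters and in 5.29% of all, and among those printed in Emx2. The TALE core TGACAG, searched on both strands and not overlapping TAATTA, occurred in 11.4% of member promoters and in 19.2% of all, and among those printed in En1 and Lhx1. These matches describe the letters and say nothing of binding.

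Of the 64 members, 21 passed the filter on low counts in the fit over the 4 regions (edgeR filterByExpr). They were Dlx1, Dlx2, Dlx4, Dlx5, Dlx6, Emx1, Emx2, En1, En2, Irx1, Irx2, Irx3, Irx5, Irx6, Lhx1, Lhx2, Lhx5, Lhx6, Meis1, Meis2 and Meis3. The other 43 were all 38 Hox genes, Dlx3, Irx4, Lhx3, Lhx4 and Lhx8. A member was called when edgeR's glmTreat placed its difference between 2 regions beyond an absolute log2 fold change of 1 at an adjusted p under 0.05, adjusted by Benjamini-Hochberg over 18152 genes. In the cerebellum over the hippocampus 10 of the 21 were called (6.36% of all genes tested), and over the neocortex 10 (7.02%) and over the hypothalamus 7 (6.56%). In the hypothalamus over the hippocampus 8 were called (7.22%), over the neocortex 8 (10.8%) and over the cerebellum 8 (13.4%). In the hippocampus over the hypothalamus 5 were called (8.83%), over the neocortex 3 (6.85%) and over the cerebellum 9 (14.2%). In the neocortex over the hypothalamus 5 were called (6.89%), over the hippocampus 0 (2.42%) and over the cerebellum 9 (10.2%). A member that passed the filter through a single high region had to differ, so that these shares are not evidence about the set. In bulk tissue fewer cells of a type and less RNA per cell cannot be told apart.

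Called higher in the cerebellum than in each other region were 7 members, namely Dlx4, En1, En2, Irx1, Irx2, Lhx1 and Meis1 (3.12% of all genes tested met the same rule). Irx6 met it in the hypothalamus (3.82% of all genes), none in the hippocampus (2.74%) and none in the neocortex (1.07%). The cerebellum was called lower than each other region for Dlx1, Dlx2, Dlx5, Dlx6, Emx2, Lhx2 and Lhx6 (4.88% of all genes tested met that rule), and the neocortex for Irx2, Lhx1 and Lhx5 (0.826%), while no member met it in the hypothalamus (1.24%) or the hippocampus (0.132%). For Irx2 this needs the call of hippocampus over neocortex (18 counts against 0), which limma, DESeq2 and a replicate block did not keep. Meis3 was the single tested member called in no pair, as were 62.2% of all genes tested.

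**Figure D1:**
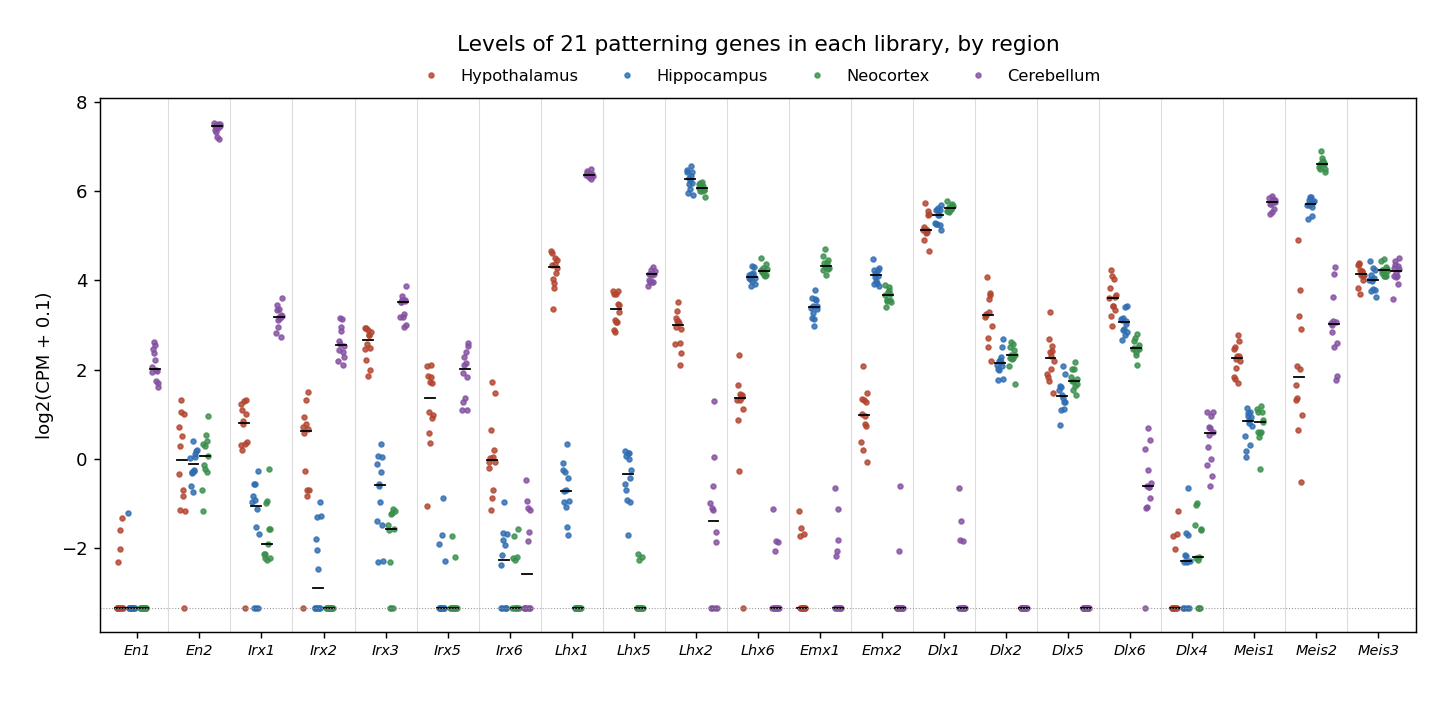
Level of each of the 21 members that passed the filter, as log2(CPM + 0.1) on the vertical axis, in every library (points) with the median of each region (black bars). Members run along the horizontal axis. En1, En2, Lhx1, Meis1, Irx1 and Irx2 sit highest in the cerebellum, Emx, Lhx2 and Lhx6 in hippocampus and neocortex, and Meis3 overlaps in all 4 regions. The dotted line marks a level of 0.

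Both engrailed genes were called highest in the cerebellum. En2 (chr5:28165694-28172166, + strand, GRCm38), which patterns cerebellar folding, lay at 144, 176 and 185 CPM (lowest, median and highest of 12 libraries) in the cerebellum, at 0, 0.904 and 2.42 CPM in the hypothalamus, at 0.348, 0.957 and 1.85 CPM in the neocortex, and at 0.497, 0.830 and 1.22 CPM in the hippocampus. The lowest cerebellum library was far above the highest of any other region, and the other 3 regions overlapped. Its log2 difference was 7.37 (SE 0.13, edgeR adjusted p = 1.82e-40) for cerebellum over hypothalamus, 7.44 (SE 0.12, adjusted p = 6.2e-43) over neocortex and 7.65 (SE 0.11, adjusted p = 8.38e-45) over hippocampus. En1 (chr1:120602418-120607992, + strand), whose loss in mice removes much of midbrain and cerebellum, was far weaker, with 2.96, 3.97 and 6.03 CPM in the cerebellum and at most 0.301 CPM in the hypothalamus and 0.332 CPM in the hippocampus. It had 0 counts in all 11 neocortex libraries, so that its cerebellar level was at least 147-fold higher than there (floor of 3 counts over the neocortex, on total counts without TMM scaling). Its log2 difference was 5.56 (SE 0.40, edgeR adjusted p = 3.22e-13) over the hypothalamus and 6.60 (SE 0.35, adjusted p = 5.34e-18) over the hippocampus. Per kilobase of exons, En2 exceeded En1 in the cerebellum 31.0 ± 8.39 times (SD, n = 12).

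Lhx1 (chr11:84518284-84525535, - strand), a LIM-homeodomain gene of Purkinje cells and of several diencephalic nuclei, lay at 77.3, 81.9 and 89.9 CPM in the cerebellum, at 10.2, 19.7 and 25 CPM in the hypothalamus and at 0.208, 0.515 and 1.17 CPM in the hippocampus. No library of the neocortex had a single Lhx1 count. The 4 regions did not overlap. The cerebellum exceeded the hypothalamus by a log2 difference of 2.13 (SE 0.08, edgeR adjusted p = 1.67e-16) and the hippocampus by 7.14 (SE 0.12, adjusted p = 5.22e-36). It exceeded the neocortex at least 2742-fold (floor of 3 counts over the neocortex, on total counts without TMM scaling). Against the same floor the hypothalamus was at least 643-fold and the hippocampus at least 17.9-fold higher than the neocortex.

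Lhx5 (chr5:120431699-120441223, + strand), which works with Lhx1 in Purkinje cell differentiation, lay at 14.7, 17.5 and 19.7 CPM in the cerebellum, at 7.04, 10.2 and 13.5 CPM in the hypothalamus and at 0.207, 0.693 and 1.03 CPM in the hippocampus. The neocortex had 3 counts in 11 libraries, and the cerebellar level was 571 times that of the neocortex (95% counting interval 195 to 2774). All cerebellum libraries were above all hypothalamus libraries, but the difference of 0.73 (log2, SE 0.11) did not reach beyond 1 and was not called (edgeR adjusted p = 1). The hypothalamus exceeded the hippocampus by 3.8 (log2, SE 0.15, adjusted p = 4.56e-23). Per kilobase, Lhx1 exceeded Lhx5 in the cerebellum 3.22 ± 0.271 times, in 12 of 12 libraries, and in the hypothalamus 1.26 ± 0.391 times, in 9 of 12 (SD).

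Among the Iroquois genes, Irx3 and Irx5 were higher in cerebellum and hypothalamus than in hippocampus and neocortex. Irx3 lay at 7.62, 11.3 and 14.5 CPM in the cerebellum, at 3.55, 6.31 and 7.59 CPM in the hypothalamus, at 0.104, 0.567 and 1.16 CPM in the hippocampus and at 0, 0.239 and 0.358 CPM in the neocortex. Irx5, its neighbour on chromosome 8 (555.6 kb apart), lay at 2.03, 3.97 and 5.92 CPM in the cerebellum and at 0.385, 2.57 and 4.19 CPM in the hypothalamus, where the 2 regions overlapped. Neither was called between cerebellum and hypothalamus (log2 0.83, SE 0.16 for Irx3 and 0.61, SE 0.27 for Irx5), and both were called in cerebellum and hypothalamus over hippocampus and neocortex. For Irx3 the hypothalamus exceeded the neocortex by 4.77 (log2, SE 0.28, edgeR adjusted p = 6.32e-17). For Irx5, with 3 counts in the neocortex, the cerebellum stood at 130 times (95% counting interval 44.2 to 636) and the hypothalamus at 87.6 times (29.4 to 430) the neocortical level.

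Irx1 and Irx2, neighbours on chromosome 13 (665.1 kb apart), were called highest in the cerebellum. Irx1 lay at 6.53, 9.00 and 12.0 CPM in the cerebellum, at 0, 1.67 and 2.41 CPM in the hypothalamus, at 0, 0.387 and 0.729 CPM in the hippocampus and at 0.108, 0.168 and 0.761 CPM in the neocortex. The cerebellum exceeded the hypothalamus without overlap, by 2.41 (log2, SE 0.21, edgeR adjusted p = 2.57e-08). Irx2 lay at 4.24, 5.78 and 8.83 CPM in the cerebellum and at 0, 1.46 and 2.75 CPM in the hypothalamus, a log2 difference of 2.17 (SE 0.27, edgeR adjusted p = 7.13e-05). Without the 5 libraries that stood apart it was 1.96 (edgeR adjusted p = 0.0023). It had 18 counts in the hippocampus and 0 in the neocortex, and the call of hippocampus over neocortex (at least 4.13-fold with the floor of 3 counts, edgeR adjusted p = 0.0365) was lost in limma (adjusted p = 1), in DESeq2 (adjusted p = 0.495), with a replicate block (adjusted p = 0.0576) and without any 1 of 6 libraries (Hippocampus Estrus 3, Diestrus 1 and Diestrus 3, Neocortex Estrus 1, Estrus 2 and Diestrus 3), with adjusted p = 0.0506 to 0.0657 in these 6 refits. Irx6, the weakest of the 5 tested Iroquois genes in the hypothalamus by mean CPM, was the one called highest there, with 0.352, 0.889 and 3.23 CPM in the hypothalamus against 0, 0.0908 and 0.621 CPM in the cerebellum. These regions overlapped, and the log2 difference was 2.47 (SE 0.46, edgeR adjusted p = 0.00156). Irx6 had 92 counts over all libraries and at most 9 in any library, and its value of 3.23 CPM was that of Hypothalamus Estrus 3. Irx4, the remaining member of the family, had 11 counts in the cerebellum, 1 in the hippocampus and 0 in the other 2 regions.

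Meis1 (chr11:18879817-19018985, - strand), a TALE gene known from cerebellar granule cells, lay at 44.9, 53.8 and 59.5 CPM in the cerebellum, at 3.14, 4.74 and 6.73 CPM in the hypothalamus, at 0.756, 1.68 and 2.19 CPM in the neocortex and at 0.932, 1.70 and 2.11 CPM in the hippocampus. Cerebellum and hypothalamus overlapped with no other region, while hippocampus and neocortex covered the same range. The cerebellum exceeded the hypothalamus by 3.48 (log2, SE 0.09, edgeR adjusted p = 1.16e-29), the hippocampus by 5.02 (SE 0.09, adjusted p = 3.87e-39) and the neocortex by 5.02 (SE 0.10, adjusted p = 3.8e-37). The hypothalamus in turn exceeded the hippocampus by 1.53 (SE 0.13, adjusted p = 0.000123) and the neocortex by 1.54 (SE 0.14, adjusted p = 0.000322). Reads of the antisense gene Gm16140, which shares 896 exon bases with Meis1 (8.5% of its exons), cannot be told apart without stranded counting, and the labels do not state that strand was used.

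Of the 5 Dlx genes that passed the filter, Dlx4 was called highest in the cerebellum. It lay at 0.558, 1.39 and 1.97 CPM in the cerebellum and at most at 0.405 CPM in the neocortex, 0.538 CPM in the hippocampus and 0.345 CPM in the hypothalamus, without overlap. The cerebellum exceeded the neocortex by 2.77 (log2, SE 0.38, edgeR adjusted p = 2.02e-05), the hippocampus by 3.20 (SE 0.36, adjusted p = 9.81e-08) and the hypothalamus by 3.38 (SE 0.48, adjusted p = 1.17e-05). Its neighbour Dlx3 (15.2 kb away on chromosome 11), which did not pass the filter, had 26 of its 39 counts in the cerebellum. Dlx4os, an antisense gene, shares 79 exon bases with Dlx4 (2.4% of its exons). It lay at 1.22 to 5.02 CPM in the cerebellum, and at most at 0.522 CPM in any library of the other regions. In the shared bases reads of Dlx4 and Dlx4os cannot be told apart without stranded counting, which the labels do not state.

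Dlx1, Dlx2, Dlx5 and Dlx6, which drive interneuron differentiation in the ventral forebrain, were lowest in the cerebellum. Dlx1 (chr2:71528113-71533981, + strand) lay at 46.3, 48.9 and 54.7 CPM in the neocortex, at 35.0, 44.0 and 51.2 CPM in the hippocampus, at 25, 35.0 and 52.8 CPM in the hypothalamus and at 0, 0 and 0.538 CPM in the cerebellum. The 3 forebrain regions overlapped and no pair of them was called. The neocortex exceeded the cerebellum by 8.71 (log2, SE 0.20, edgeR adjusted p = 2.59e-35), the hippocampus by 8.51 (SE 0.20, adjusted p = 9.07e-35) and the hypothalamus by 8.30 (SE 0.21, adjusted p = 7.08e-33). Dlx2, which lies 9.4 kb from Dlx1 on the opposite strand, lay at 4.52, 9.29 and 16.9 CPM in the hypothalamus, at 3.12, 4.91 and 6.07 CPM in the neocortex and at 3.31, 4.32 and 6.34 CPM in the hippocampus. It had 0 counts in all 12 cerebellum libraries, and against a floor of 3 counts over the cerebellum the hypothalamus was at least 221-fold higher, the neocortex at least 99.7-fold and the hippocampus at least 95.4-fold.

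Dlx5 lay at 2.71, 4.68 and 9.68 CPM in the hypothalamus, at 2.59, 3.26 and 4.42 CPM in the neocortex and at 1.59, 2.55 and 4.15 CPM in the hippocampus, and also had 0 counts in the cerebellum. Against the same floor it was at least 102-fold higher in the hypothalamus, at least 68.5-fold in the neocortex and at least 57.0-fold in the hippocampus than in the cerebellum. Dlx6, 9.2 kb away, lay at 7.85, 12.2 and 18.7 CPM in the hypothalamus, at 6.21, 8.25 and 10.6 CPM in the hippocampus and at 4.18, 5.48 and 6.90 CPM in the neocortex. In the cerebellum it lay at 0, 0.557 and 1.53 CPM. Unlike its partner it kept 50 counts in the cerebellum, and the hypothalamus exceeded the cerebellum by 4.03 (log2, SE 0.19, edgeR adjusted p = 1.41e-20). Dlx6 shares 104 exon bases (4.4%) with Dlx6os2 on the opposite strand. In these bases reads of the 2 genes cannot be told apart without stranded counting. No pair of forebrain regions was called for Dlx2, Dlx5 or Dlx6. Among them the largest difference was that of Dlx2 between hypothalamus and hippocampus (log2 1.14, SE 0.14, edgeR adjusted p = 0.284).

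The balance within each Dlx pair differed by region. Per kilobase of exons, Dlx1 stood at 2.22 ± 0.603 times Dlx2 in the hypothalamus (SD, n = 12), 5.27 ± 0.609 times in the hippocampus (n = 12) and 5.50 ± 1.17 times in the neocortex (n = 11). The highest hypothalamus library, at 3.27, was below the lowest hippocampus library, at 4.28, and the lowest neocortex library, at 4.04. Dlx6 stood at 2.63 ± 0.726 times Dlx5 in the hypothalamus, 3.09 ± 0.890 times in the hippocampus and 1.62 ± 0.385 times in the neocortex, with overlap. These ratios are descriptions and were not tested.

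Emx1 (chr6:85187438-85204462, + strand), a marker of cortical projection neurons and their precursors, lay at 17.3, 19.8 and 25.9 CPM in the neocortex and at 7.78, 10.5 and 13.8 CPM in the hippocampus. It did not exceed 0.538 CPM in any cerebellum library or 0.345 CPM in any hypothalamus library. Neocortex and hippocampus did not overlap, but their log2 difference of 0.98 (SE 0.09) was within the minimum of 1 and was not called. The neocortex exceeded the cerebellum by 7.27 (SE 0.21, edgeR adjusted p = 1.91e-30) and the hypothalamus by 7.32 (SE 0.23, adjusted p = 1.89e-28). Emx2 (chr19:59458372-59465357, + strand), which acts in cortical area and hippocampal growth, lay at 14.7, 17.3 and 22.3 CPM in the hippocampus, at 10.4, 12.6 and 14.7 CPM in the neocortex, at 0.862, 1.89 and 4.17 CPM in the hypothalamus and at 0, 0 and 0.558 CPM in the cerebellum. Hippocampus over hypothalamus was 3.12 (log2, SE 0.14, edgeR adjusted p = 6.5e-19), neocortex over hypothalamus 2.65 (SE 0.15, adjusted p = 3.41e-14) and hypothalamus over cerebellum 4.73 (SE 0.41, adjusted p = 1.96e-11). Hippocampus over neocortex was 0.48 (SE 0.10) and was not called. Per kilobase, Emx1 stood at 0.837 ± 0.165 times Emx2 in the hippocampus and at 2.28 ± 0.385 times in the neocortex, where its lowest value of 1.67 was above the highest hippocampus value of 1.23.

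Lhx2 (chr2:38339281-38369733, + strand), a selector gene of the cortex, lay at 60.0, 77.3 and 93.9 CPM in the hippocampus, at 58.5, 67.1 and 73.9 CPM in the neocortex, at 4.19, 7.91 and 11.3 CPM in the hypothalamus and at 0, 0.289 and 2.36 CPM in the cerebellum. Hippocampus and neocortex overlapped and the other regions stood apart from them and from each other. Hippocampus over hypothalamus was 3.33 (log2, SE 0.12, edgeR adjusted p = 2.65e-24) and hypothalamus over cerebellum 4.08 (SE 0.26, adjusted p = 7.42e-15). Without the 5 libraries left out together (Cerebellum Estrus 2, Metestrus 1 and Metestrus 2, Hypothalamus Estrus 3 and Metestrus 3) hypothalamus over cerebellum was 5.46 (edgeR adjusted p = 2.53e-18). Those 3 cerebellum libraries held 0.561 to 2.36 CPM and the other 9 at most 0.408 CPM. They were picked partly for high Lhx2, so that leaving them out had to lower the cerebellar level, and nothing is drawn from the larger difference. Lhx6, which marks interneurons of the medial ganglionic eminence, lay at 17.0, 18.6 and 22.5 CPM in the neocortex, at 14.7, 16.9 and 20.0 CPM in the hippocampus, at 0, 2.48 and 4.93 CPM in the hypothalamus and at 0, 0 and 0.358 CPM in the cerebellum. Neocortex over hypothalamus was 3.07 (log2, SE 0.14, edgeR adjusted p = 2.77e-18), and hypothalamus over cerebellum 4.64 (SE 0.40, adjusted p = 2.18e-11). Lhx8, a gene of basal forebrain cholinergic neurons, had 3 counts in the hypothalamus, 1 in the hippocampus and 0 elsewhere. Lhx3, a gene of pituitary and motor neuron development, had 29 of its 53 counts in the hypothalamus, where the summed level of 4 pituitary markers ran from 1.21 to 67.6 CPM; their part in it was not tested. Lhx4, its close relative, had 36 counts spread over all 4 regions.

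Meis2 and Meis3 differed in pattern from Meis1. Meis2 (chr2:115863064-116065839, - strand), a gene of striatal and dorsal cortical lineages, lay at 85.9, 97.2 and 119 CPM in the neocortex, at 41.6, 52.6 and 58.3 CPM in the hippocampus, at 3.32, 8.02 and 19.6 CPM in the cerebellum and at 0.603, 3.51 and 29.9 CPM in the hypothalamus. Neocortex, hippocampus and cerebellum did not overlap, while cerebellum and hypothalamus did. Neocortex over cerebellum was 3.49 (log2, SE 0.19, edgeR adjusted p = 9.64e-18), hippocampus over cerebellum 2.56 (SE 0.19, adjusted p = 5.05e-11), neocortex over hypothalamus 4.26 (SE 0.22, adjusted p = 2.62e-19) and hippocampus over hypothalamus 3.34 (SE 0.22, adjusted p = 9.89e-14). Without the 5 libraries that stood apart, neocortex over cerebellum was 3.92, hippocampus over cerebellum 3.0, neocortex over hypothalamus 4.59 and hippocampus over hypothalamus 3.68, all called. These libraries were picked for high Meis2, so that leaving them out had to widen these differences. The calls without them are therefore no further support. Neocortex over hippocampus, at 0.92 (SE 0.15), was not called. Meis3 (chr7:16175090-16186504, + strand), the third member of the family, averaged 17.6 ± 2.41 CPM in the hypothalamus (SD, n = 12), 16.2 ± 2.69 CPM in the hippocampus (n = 12), 18.8 ± 1.71 CPM in the neocortex (n = 11) and 18.2 ± 2.94 CPM in the cerebellum (n = 12). All 4 regions overlapped, and its largest log2 difference was 0.22 (SE 0.08), of neocortex over hippocampus. Region accounted for 14.1% of its variance in log2 CPM (pseudocount 0.5), against 66.0% for Irx6, the next lowest member, and 99.3% for Lhx1, the highest.

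Within regions the highest Meis2 values were those of single libraries. In the hypothalamus Meis2 was 29.9 CPM in Estrus 3, 13.6 CPM in Metestrus 3 and 9.17 CPM in Metestrus 1, and between 0.603 and 7.40 CPM in the other 9. In Estrus 3 the sum of 8 striatal markers was 408 CPM against 140 to 204 CPM in the other 11 libraries, with 6 of the 8 above all others and none at 0. The septum, preoptic area and amygdala list (7 genes, Meis2 among them) summed to 119 CPM against 112 to 147 CPM. Without Meis2 that list summed to 89.6 CPM in Estrus 3, below the 110 to 144 CPM of the other 11 libraries. The sums of 8 hippocampal markers (202 CPM against 130 to 146 CPM, with 2 of the 8 at 0) and of 8 neocortical markers (164 CPM against 111 to 151 CPM, with none at 0) were also above those of the other 11 libraries. So were those of 4 microglial markers (118 CPM against 74.4 to 102 CPM) and of 4 endothelial markers (120.2 CPM against 78.5 to 117 CPM), none of them at 0. The TMM factor of Estrus 3 was 0.679, against 0.842 to 1.19 in the other 11 libraries, and a low factor raises every CPM value of a library. The sums were not compared on total counts, so that the smaller excesses may come from this scaling. In the cerebellum Meis2 lay at 12.2 CPM in Estrus 2, 17.5 CPM in Metestrus 1 and 19.6 CPM in Metestrus 2, and between 3.32 and 8.44 CPM in the other 9 libraries. The same 3 libraries held 3.64 to 8.36 CPM of Lhx9, a LIM-homeodomain gene of the diencephalon, against 0.177 to 1.63 CPM in the other 9, and 20.5 to 36.2 CPM of Tcf7l2, a thalamic gene, against 4.12 to 10.6 CPM. Of the 8 genes of the thalamus and habenula list 1, Tcf7l2, was above all other libraries, none was at 0, and the sum was 348 to 364 CPM against 304 to 364 CPM. Six3 of the striatum list and Pou4f2 of the midbrain and brainstem list were also above all other libraries, while the sums of both lists overlapped. Among members Irx2 was higher as well, at 7.62 to 8.83 CPM in these 3 libraries against 4.24 to 7.17 CPM in the other 9. En2, Lhx1, Lhx5 and Meis1 in these 3 libraries lay within the range of the other 9. The part of neighbouring tissue in these values was not tested.

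**Figure D2:**
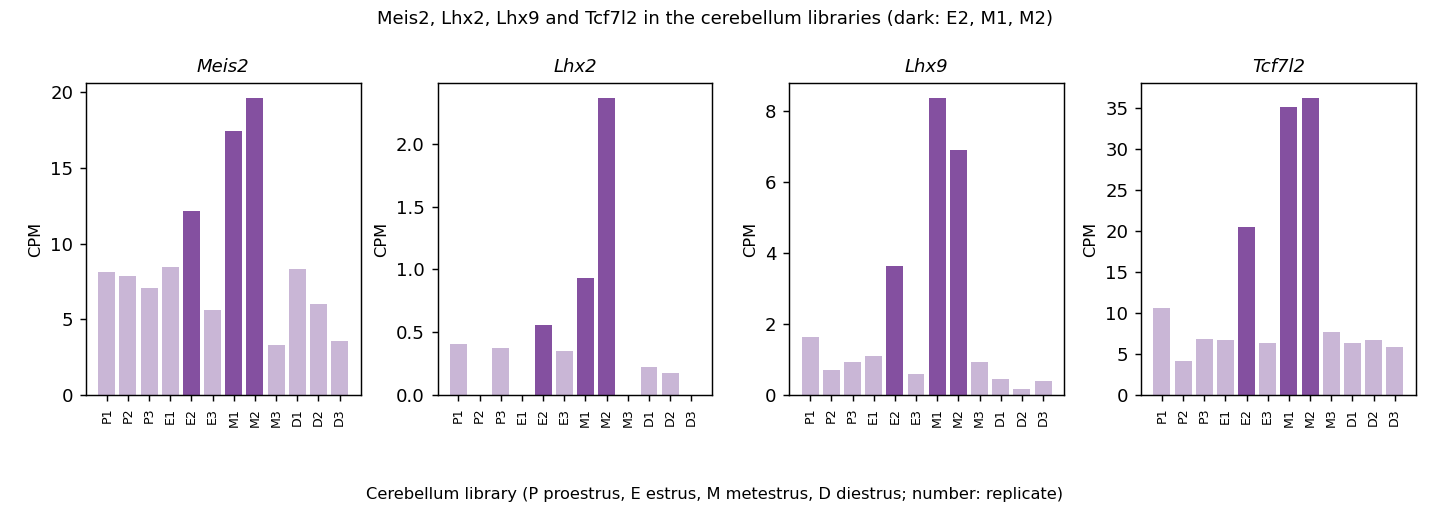
CPM (vertical axis) of Meis2, Lhx2, Lhx9 and Tcf7l2 in each of the 12 cerebellum libraries (horizontal axis, by stage and replicate number). In Estrus 2, Metestrus 1 and Metestrus 2 (dark bars) all 4 genes are above the other 9 libraries, with Meis2 at 12.2 to 19.6 CPM against 3.32 to 8.44 CPM.

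The Hox genes were near the limit of detection in all regions. Over 346019730 counts, 12 of the 38 had no count in any of the 47 libraries, which allows up to 0.00867 CPM for each of them (3 counts of the total), 18 had 1 to 10 counts in all and 8 had more than 10. The largest count of any Hox gene in any library was 15 (Hoxc9, in Hippocampus Estrus 1 and Estrus 3). Summed over the 38 genes there were 214 counts in the hippocampus, 1.56 CPM (of total counts, without TMM scaling, 95% Clopper-Pearson interval 1.36 to 1.79), and 45 in the hypothalamus, 0.902 CPM (0.658 to 1.21). The cerebellum had 48, or 0.740 CPM (0.546 to 0.981), and the neocortex 13, or 0.138 CPM (0.0734 to 0.236). Per library the sum ran from 0.728 to 2.49 CPM in the hippocampus, from 0 to 1.77 CPM in the hypothalamus, from 0 to 1.37 CPM in the cerebellum and from 0 to 0.437 CPM in the neocortex, so that hippocampus and neocortex did not overlap. These intervals and all floors cover counting error alone, because they pool reads over libraries and leave out the spread between libraries. PCR copies of a molecule were not marked, so that reads are not independent and the counting error may be larger than given.

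Hoxc9 carried 137 of the 320 Hox counts, with 110 in the hippocampus, 18 in the hypothalamus, 5 in the neocortex and 4 in the cerebellum. It lay at 0.518, 0.884 and 0.997 CPM in the hippocampus, at 0, 0.288 and 1.05 CPM in the hypothalamus, at 0, 0 and 0.232 CPM in the neocortex and at 0, 0 and 0.280 CPM in the cerebellum. The hippocampus was above all neocortex and cerebellum libraries and overlapped the hypothalamus. Hoxb6 had 21 of its 21 counts in the hippocampus, Hoxb7 23 of 25 and Hoxd11 15 of 15. Hoxa3 had 8 of its 12 counts in the cerebellum. It shares 503 exon bases (8.4%) with Hoxaas2 on the opposite strand, and fewer with Hoxaas3 and 5730596B20Rik, so that its reads may belong to these genes. Grouped by paralog number, a grouping made after the counts were seen, groups 6 to 13 (24 genes) held 197 of the 214 counts in the hippocampus and 10 of the 48 in the cerebellum, and groups 1 to 5 (14 genes) held 17 counts in the hippocampus and 38 in the cerebellum. In the hypothalamus groups 6 to 13 held 20 of 45 counts, and in the neocortex 9 of 13. Because the hippocampus had its own library protocol, region and protocol cannot be told apart for any of these counts. Hoxa7, with 11 of its 16 counts in the hippocampus, shares 586 exon bases (20.4%) with the antisense gene Hoxaas3, so that its reads may belong to either.

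**Figure D3:**
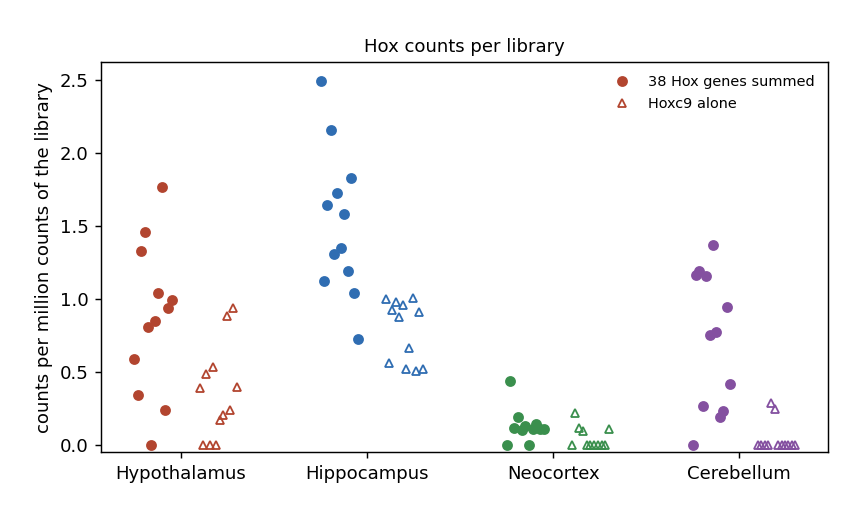
Hox counts as CPM of the total counts of each library (vertical axis) by region, with the 38 Hox genes summed (filled points) and Hoxc9 alone (open triangles). The sum lies between 0.728 and 2.49 CPM in the hippocampus and reaches 0.437 CPM in the neocortex.

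Of 13 long noncoding RNAs at these loci 6 passed the filter, and 1 was called highest in the hypothalamus (Hotairm1), 1 in the hippocampus (Emx2os) and 1 in the cerebellum (Lhx1os). Dlx1as averaged 10.8 ± 1.30 CPM in the neocortex (SD, n = 11), 7.97 ± 0.720 CPM in the hippocampus and 7.09 ± 1.40 CPM in the hypothalamus (n = 12 each), and 0.516 ± 0.257 CPM in the cerebellum. Per kilobase it stood at 0.723 times Dlx1 in the neocortex, 0.616 times in the hippocampus and 0.633 times in the hypothalamus. It shares 335 exon bases (6.2%) with Dlx1. Dlx6os1, also known as Evf2, averaged 19.5 ± 2.35 CPM in the neocortex, 19.4 ± 4.02 CPM in the hippocampus and 10.4 ± 2.25 CPM in the hypothalamus, and had 0 counts in the cerebellum, where Dlx6 had 50. Relative to Dlx6 per kilobase it stood at 1.63 ± 0.275 in the neocortex, 1.12 ± 0.326 in the hippocampus and 0.400 ± 0.133 in the hypothalamus. Emx2os averaged 11.5 ± 2.15 CPM in the hippocampus and 3.17 ± 0.670 CPM in the neocortex, a pair of regions between which Emx2 was not called. The ratio of Emx2os to Emx2 per kilobase was 0.281 to 0.561 in the 12 hippocampus libraries and 0.0915 to 0.201 in the 11 neocortex libraries, without overlap. Emx2os shares 264 exon bases (8.8%) with Emx2. Lhx1os averaged 18.2 ± 1.61 CPM in the cerebellum and 2.76 ± 1.11 CPM in the hypothalamus. Irx3os, which shares 124 bases with Irx3, averaged 1.23 ± 0.382 CPM in the cerebellum and 0.812 ± 0.559 CPM in the hypothalamus and had 6 counts in the hippocampus and 0 in the neocortex. Hotairm1, the RNA at the start of the Hoxa cluster, had 32 counts in the hypothalamus, 6 in the cerebellum, 1 in the hippocampus and 1 in the neocortex.

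Compared per kilobase within a region, En2 was the strongest member in the cerebellum, at 48.1 ± 3.71 CPM per kilobase, followed by Lhx1 at 20.3 ± 0.825, and neither overlapped the member next below it. Lhx5 followed at 6.34 ± 0.571 and overlapped Meis3, the member next below it. In the hippocampus Lhx2 led at 17.5 ± 2.45 CPM per kilobase and stood clear of Dlx1 at 8.03 ± 1.0, which overlapped Emx2 at 5.81 ± 0.728. In the neocortex Lhx2 led at 15.3 ± 1.05, clear of Emx1 at 9.44 ± 1.10, which overlapped Dlx1 at 9.17 ± 0.465, and Dlx1 overlapped Meis2 at 8.15 ± 0.746. In the hypothalamus Dlx1 at 6.98 ± 1.47, Meis3 at 5.55 ± 0.761, Dlx6 at 5.31 ± 1.40 and Lhx1 at 4.65 ± 1.08 CPM per kilobase each overlapped the next.

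Homeodomain proteins act with cofactors, and several lists of these were measured beside the members. Called in no pair were 5 of 8 TALE partners, 5 of 9 LIM cofactors, 3 of 6 tested corepressors and 17 of 18 Polycomb and trithorax genes. For all genes tested that share was 62.2%. The median largest absolute log2 difference between any 2 regions was 1.28 over the TALE partners, 1.12 over the LIM cofactors, 1.20 over the corepressors, 0.72 over the Polycomb and trithorax genes and 0.93 over all 18152 genes. Pbx3, a Hox and Meis partner, averaged 18.2 ± 2.14 CPM in the cerebellum and 4.82 ± 1.06 CPM in the neocortex, and Pknox2 averaged 72.2 ± 3.18 CPM in the neocortex and 20.4 ± 3.96 CPM in the hypothalamus. Ldb2, an adaptor of LIM factors, averaged 71.0 ± 6.59 CPM in the neocortex and 2.12 ± 1.89 CPM in the cerebellum, and Lmo3, a LIM-only protein, 143 ± 17.8 CPM in the hippocampus and 4.23 ± 1.54 CPM in the cerebellum. Tle2 averaged 75.9 ± 14.4 CPM in the cerebellum and 18.4 ± 5.39 CPM in the hippocampus, and Tle1 55.4 ± 6.72 CPM in the hippocampus and 20.2 ± 1.97 CPM in the cerebellum. All 6 differences were called. Ezh2, the Polycomb methyltransferase, was the only gene of its list called, in 1 pair, at 8.44 ± 1.98 CPM in the cerebellum and 3.34 ± 0.798 CPM in the neocortex. Cbx2, of the same list, was not called, at 5.88 ± 1.41 CPM in the cerebellum and 2.79 ± 0.621 CPM in the neocortex.

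Other patterning genes had marked regional levels. All 7 tested cerebellar patterning genes (of 8, Zic1 to Zic5, Barhl1 and Barhl2) were called highest in the cerebellum. Barhl2 averaged 54.8 ± 6.19 CPM there and 3.05 ± 1.49 CPM in the hypothalamus, and Barhl1 averaged 17.2 ± 1.98 CPM in the cerebellum and 1.34 ± 0.609 CPM in the hypothalamus. Of the 5 tested midbrain-hindbrain boundary genes (of 9) Pax2 was called highest in the cerebellum, at 11.2 ± 1.20 CPM, while Wnt1 averaged 1.20 ± 0.498 CPM in the neocortex with 0 counts in the cerebellum. Of the dorsal telencephalon genes (8 in the list) Eomes averaged 28.4 ± 9.93 CPM in the cerebellum and 0.0308 ± 0.0739 CPM in the neocortex. Of 7 tested ventral forebrain genes (of 8) 3 were called highest in the hypothalamus. Among these was Vax1, at 6.68 ± 1.65 CPM in the hypothalamus with 0 counts in the cerebellum. Of 4 tested further LIM-homeobox genes (of 5) Isl1 was called highest in the hypothalamus, at 24.8 ± 2.32 CPM with 0 counts in the neocortex, and Lmx1a averaged 2.16 ± 1.14 CPM in the hippocampus and 0.0488 ± 0.0904 CPM in the neocortex. Lmx1a is also a choroid plexus gene, and a list of 6 choroid plexus markers summed to 154 to 3232 CPM in the hippocampus and 14.4 to 62.8 CPM in the neocortex, whose part in it was not tested. Of 5 posterior homeobox genes 1 was tested, Evx2, which lies beside the Hoxd cluster and was called highest in the cerebellum, with 52 counts in 12 of 12 libraries there and 0 in the other 3 regions. Of 9 GABAergic neuron genes 3 were called in no pair, 2 were called highest in the cerebellum and 1 in the neocortex. Htr3a and Vip had the largest differences, with Htr3a at 7.64 ± 0.799 CPM in the hippocampus and 1 count in the cerebellum, and Vip at 31.6 ± 4.81 CPM in the neocortex and 0.147 ± 0.285 CPM in the cerebellum.

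The 4 stages of the cycle were compared within each region, which is the question the study was designed for. No member was called in any region by edgeR's quasi-likelihood F-test at an adjusted p of 0.05, out of 14 members tested each in hypothalamus and hippocampus and 12 each in neocortex and cerebellum. No gene at all was called in these tests (0.0% of 15230 genes in the hypothalamus, of 15926 in the neocortex, of 17079 in the hippocampus and of 14877 in the cerebellum). An unadjusted p under 0.05 was reached by 1 member in the hypothalamus (1.54% of all genes), 1 in the neocortex (5.61%), 1 in the hippocampus (1.47%) and 0 in the cerebellum (1.72%). DESeq2 called 0 members in each region, and so did limma (voom, with a quality weight per sample). The ratio of the highest to the lowest stage mean had a median of 1.37 over the tested members in the hypothalamus, 1.21 in the cerebellum, 1.18 in the neocortex and 1.15 in the hippocampus. Among the members with high levels this ratio was 1.05 for Lhx1 in the cerebellum, 1.06 for En2 in the cerebellum and 1.10 for Lhx2 in the hippocampus. The tests rest on 3 libraries per stage (2 at estrus in the neocortex), and since stage and age partly coincide, the 2 cannot be told apart between proestrus and estrus.

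**Figure D4:**
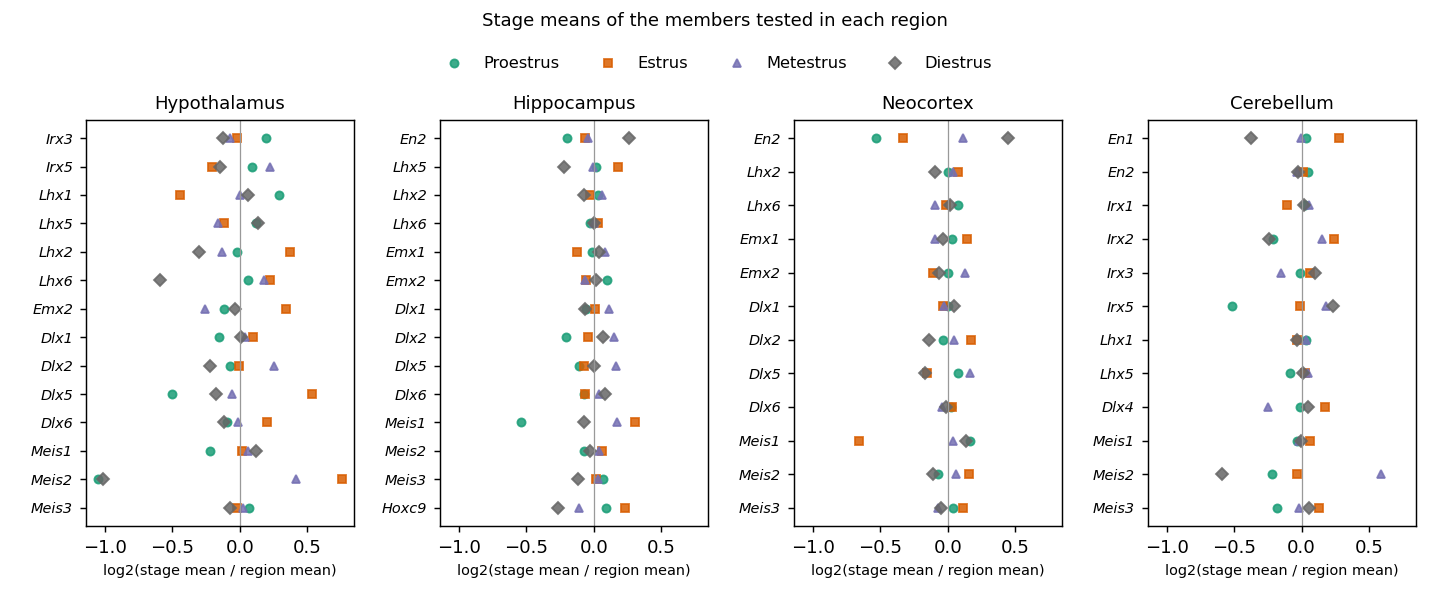
Mean CPM of each stage relative to the mean over all libraries of the region, as log2 ratio (horizontal axis), for the members tested in that region (vertical axis), with a symbol per stage. Most stage means lie close to 0. The widest spread is that of Meis2 in the hypothalamus, whose highest and lowest stage means, at estrus and proestrus, differ 3.50 times. The estrus mean rests on Estrus 3, and without that library estrus has the lowest mean (1.97 CPM, n = 2) and metestrus the highest (8.91 CPM).

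In the hypothalamus Lhx1 had the smallest unadjusted p of the members and an edgeR adjusted p of 1. Its 3 libraries lay at 25, 24.2 and 20.1 CPM at proestrus, 10.2, 16.2 and 15.3 CPM at estrus, 14.1, 22.5 and 20.4 CPM at metestrus and 18.0, 22.0 and 19.3 CPM at diestrus. The estrus libraries were all below those of proestrus and diestrus and overlapped those of metestrus. Dlx5 followed (edgeR adjusted p = 1), with 3.62, 3.46 and 3.25 CPM at proestrus, 6.33, 5.15 and 9.68 CPM at estrus, 4.88, 3.94 and 5.24 CPM at metestrus and 5.71, 2.71 and 4.48 CPM at diestrus, and its highest value was in Estrus 3. Lhx2 (edgeR adjusted p = 1) averaged 7.47 ± 1.5 CPM at proestrus, 9.85 ± 1.43 CPM at estrus, 6.91 ± 2.36 CPM at metestrus and 6.15 ± 1.16 CPM at diestrus (SD, n = 3 each), with its highest value of 11.3 CPM also in Estrus 3. That library had the lowest TMM factor of the region (0.679), which raises its CPM values.

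In the hippocampus Meis1 had the smallest unadjusted p (edgeR adjusted p = 1). It lay at 1.33, 1.03 and 0.932 CPM at proestrus, 2.11, 1.94 and 1.86 CPM at estrus, 1.66, 1.74 and 1.97 CPM at metestrus and 1.15, 1.81 and 1.58 CPM at diestrus. The proestrus libraries were all below those of estrus and metestrus and overlapped those of diestrus. Dlx2 (edgeR adjusted p = 1) averaged 3.83 ± 0.472 CPM at proestrus, 4.30 ± 0.357 CPM at estrus, 4.91 ± 0.595 CPM at metestrus and 4.63 ± 1.53 CPM at diestrus (SD, n = 3 each). Dlx1 (adjusted p = 1) averaged 41.6 ± 5.13 CPM at proestrus, 43.5 ± 4.70 CPM at estrus, 46.9 ± 2.82 CPM at metestrus and 41.3 ± 8.65 CPM at diestrus. For Dlx2 the proestrus libraries were all below those of metestrus and overlapped the other stages, and for Dlx1 all stages overlapped.

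In the neocortex Meis2 had the smallest unadjusted p (edgeR adjusted p = 0.776). It lay at 93.6, 89.7 and 97.2 CPM at proestrus, 119 and 101 CPM at estrus, 106, 102 and 98.8 CPM at metestrus and 97.1, 90.3 and 85.9 CPM at diestrus. Estrus and metestrus libraries were all above those of proestrus and diestrus. The highest of them, Estrus 1, also had the highest sum of 8 striatal markers in the region. That sum was 196 CPM, against 106 to 135 CPM in the other neocortex libraries, and its part in the Meis2 level was not tested. En2 (edgeR adjusted p = 0.939) averaged 0.680 ± 0.436 CPM at proestrus, 0.783 ± 0.0375 CPM at estrus (n = 2), 1.06 ± 0.319 CPM at metestrus and 1.34 ± 0.458 CPM at diestrus (SD, n = 3 for the others). Lhx2 (adjusted p = 0.939) averaged 67.5 ± 4.13 CPM at proestrus, 71.0 ± 1.51 CPM at estrus, 69.0 ± 5.09 CPM at metestrus and 63.0 ± 3.91 CPM at diestrus.

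In the cerebellum Meis2 had the smallest unadjusted p (edgeR adjusted p = 1), with 8.15, 7.88 and 7.06 CPM at proestrus, 8.44, 12.2 and 5.64 CPM at estrus, 17.5, 19.6 and 3.32 CPM at metestrus and 8.34, 6.01 and 3.55 CPM at diestrus. The 3 highest values were those of the libraries that stood apart, and the lowest of all was also a metestrus library. Without a filter on low counts Meis2 was called in the cerebellum (edgeR adjusted p = 9.13e-05), the only member that any alternative called in a stage test. Over the other alternatives its adjusted p ran from 0.183 (without Metestrus 3) to 1. En1 (edgeR adjusted p = 1) averaged 4.41 ± 0.861 CPM at proestrus, 5.23 ± 0.733 CPM at estrus, 4.30 ± 1.30 CPM at metestrus and 3.32 ± 0.453 CPM at diestrus (SD, n = 3 each). Irx2 (adjusted p = 1) averaged 5.33 ± 0.823 CPM at proestrus, 7.28 ± 1.5 CPM at estrus, 6.86 ± 2.34 CPM at metestrus and 5.22 ± 0.477 CPM at diestrus.

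**Figure D5:**
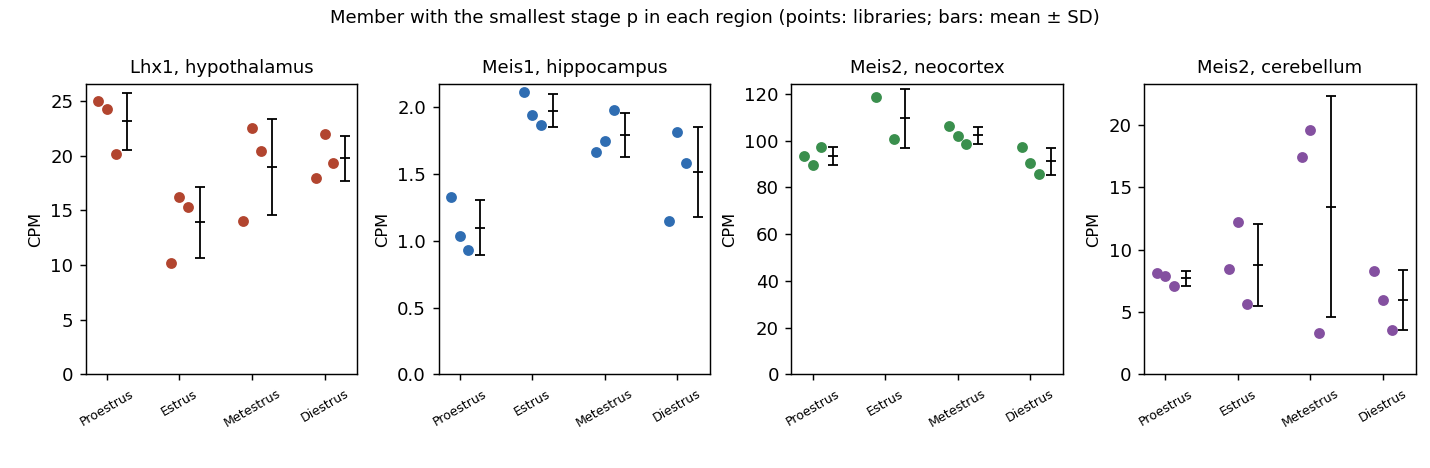
CPM (vertical axis) by stage (horizontal axis) of the member with the smallest stage p in each region, with libraries as points and the mean ± SD beside them. Lhx1 is lowest at estrus in the hypothalamus (mean 13.9 CPM), Meis1 lowest at proestrus in the hippocampus (1.10 CPM) and Meis2 highest at estrus in the neocortex (109.7 CPM, n = 2). The higher of these 2 libraries, Estrus 1, was also the highest of its region in summed striatal markers. In the cerebellum the metestrus libraries of Meis2 spread from 3.32 to 19.6 CPM.

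Whether the stage effect differed between regions was tested as an interaction over all 47 libraries, and no member and no gene of 18152 (0.0%) was called. The smallest unadjusted p values were those of Meis1, Lhx2 and Irx5, each with an edgeR adjusted p of 1, and 1 of the 21 members, Meis1, had an unadjusted p under 0.05. Meis1 was lowest at proestrus in the hippocampus (1.10 ± 0.207 CPM) and lowest at estrus in the neocortex (1.04 ± 0.395 CPM, n = 2), and its cerebellar stage means lay between 51.7 and 55.2 CPM. A p that misses the threshold does not show that the stages were alike.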

How the data were processed

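RNA-seq counts of 47 libraries were read from 4 deposited tables, 1 per brain region, in which the authors give raw whole-number counts per gene with no normalization. Cufflinks 2.1.1, DESeq 1.12.1, SAMtools, TopHat2 2.0.8 and Trimmomatic 0.32 are listed per the submitters' processing notes, as are the builds mm10 and GRCm38. Which program counted the reads, whether by strand and on which gene models is not stated in the labels or files used here. Symbols came from GENCODE M21, which matched 35449 of the 37315 gene identifiers. A library of the neocortex at estrus and 1 gene symbol of the rule (Hoxd4) were not analysed here, and of the corepressor list Tle5 was not analysed here. No 2 of 46 replicate pairs held identical values. The labels say that RNA came from each animal and do not say which libraries of different regions share an animal, so that p-values may rest on libraries that are not independent between regions.

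CPM values are counts per 1000000 of TMM-scaled library size (edgeR 4.0.16, limma 3.58.1, R 4.3.3), and levels between genes were divided by exon length in kilobases. All folds against a floor of 3 counts and all ratios with a counting interval use pooled total counts without TMM scaling. They are bounds on that scale alone. Genes were kept by filterByExpr (minimum count 10, minimum total 15). Regions were compared in a quasi-likelihood fit over all 47 libraries with region and stage as factors and glmTreat at a log2 fold change of 1. Stages were compared within a region by the quasi-likelihood F-test, and their difference between regions by an interaction with 9 coefficients. All adjusted p-values are Benjamini-Hochberg values over all genes tested, with a threshold of 0.05, and the procedure was tested on simulated data. There the stage tests recovered 70 to 89% of 2-fold changes, and 6.32 to 11.1% of their calls were false. The interaction test recovered 58% of 2-fold changes, with 2.72% of calls false. For neocortex against cerebellum 90% of 4-fold changes were recovered, with 0% false. Levels are given for every member that passed the filter, and for the stages the 3 members per region with the smallest p. The other genes named from each list are those with the 2 largest differences between regions or an overlap with a member. Cbx2, the promoters shown, the paralog groups and the stages' steady members were chosen after their values were seen. Results of 3 further genes are not reported here. Members and lists were chosen with earlier results of these data known. Alternatives were DESeq2 1.42.0, limma, RLE size factors, other filters, no minimum fold change, age as a factor, a replicate block, CPM from total counts and leaving out libraries.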

Additional observations from a re-analysis of the deposited data

How the results depend on the processing

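Counts of called members changed by over 1.5 times in 5 cases, all upward. Without a filter on low counts, 1 member was called in the stage test of the cerebellum (Meis2, against 0 with the filter, with 0.354% of all genes called) and 7 in the hippocampus over the neocortex (against 3, with 7.74% of all genes). With no minimum fold change, 6 were called in the hippocampus over the neocortex (against 3, with 32.6% of all genes), 5 in the neocortex over the hippocampus (against 0, with 31.4%) and 11 in the cerebellum over the hypothalamus (against 7, with 36.6%). Leaving out 1 library at a time gave 2 to 3 members in the hippocampus over the neocortex, 8 to 9 in the hypothalamus over the hippocampus and 8 to 9 in the hypothalamus over the neocortex, and the same counts as the full set elsewhere. Of the log2 differences of called members in alternatives that still tested the member, 4495 kept their direction and call and 0 changed sign. Another 9 lost the call, all of them Irx2 in the hippocampus over the neocortex. Calls of members that an alternative filter removed are not in this tally. Dlx4 and Irx6, with 133 and 92 counts over all libraries, were below the filter at a mean of 1 CPM. The lowest counts over such alternatives were 7 in the hypothalamus over each of the other regions (against 8) and 6 in the cerebellum over the hypothalamus (against 7). In the cerebellum over the hippocampus and over the neocortex they were 9 (against 10). Of mean CPM values 2 moved by more than the spread between libraries, both with CPM from total counts, Dlx1 in the neocortex to 46.2 CPM and Lhx1 in the cerebellum to 86.9 CPM. Replicate numbers are shared between regions and stages, but the labels do not say that they pair libraries, and deviations of same-numbered libraries correlated between -0.164 and 0.224 over the region pairs, and those of 1 region at other stages between -0.452 and 0.509 (both in the hippocampus). With a replicate block 2 members were called in the hippocampus over the neocortex (against 3), and no other count of called members changed, the stage tests and the interaction staying at 0. In the neocortex and cerebellum 10 of 11 libraries correlated best with their own number, and in the other pairs 2 to 6. Leaving out 5 libraries together, chosen after seeing the data, changed no count. No Hox gene reached more than 15 counts in a library, and a region's level of a member at 0 counts is known only as under its floor of 3 counts.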
